A study of Sus scrofa with 2 samples.

Results

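The coactivator genes PPARGC1A and PPARGC1B and the estrogen-related receptor genes ESRRA and ESRRG were followed across the nuclei of the porcine pancreas. The 4 genes were taken by symbol out of 31908 genes in the count matrices, and all 4 were found. They were chosen by their levels in the same nuclei, so their levels are given as a description and no test is made on them. Single-nucleus RNA sequencing was performed on 1 wild-type (WT) Bama pig and 1 transgenic Bama pig (PIGinH11), and each group is therefore 1 library. The PIGinH11 pig carried the knock-in alleles GIPRdn (a dominant-negative incretin receptor), hIAPP (human islet amyloid polypeptide) and PNPLA3I148M (a human lipid droplet protein variant), driven by promoters of beta cells or liver. Both pigs were 18 months old and received a control diet until 6 months and then a high-fat and high-sucrose diet (HFHSD) for 12 months, so no pig on a control diet alone was compared. Each library came from 1 piece of the pancreas body.

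PPARGC1A encodes a transcriptional coactivator that binds nuclear receptors and drives mitochondrial biogenesis, fatty acid oxidation and, in the liver, gluconeogenesis. PPARGC1B encodes its close relative. The estrogen-related receptors ESRRA and ESRRG are orphan nuclear receptors that bind DNA without a known natural hormone and recruit these coactivators to genes of the respiratory chain and the tricarboxylic acid cycle, and ESRRG is known for its part in the metabolic maturation of beta cells.

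PPARGC1A (ENSSSCG00000029275) spans 686 kb on chromosome 8 from 17841844 to 18527953 of Sscrofa11.1 in the RefSeq annotation. ESRRG (ENSSSCG00000010814) spans 661 kb on chromosome 10 from 6710615 to 7371419. PPARGC1B (ENSSSCG00000014437) spans 102 kb on chromosome 2 from 150823338 to 150924871. ESRRA (ENSSSCG00000013028), also on chromosome 2 from 7803504 to 7812868, is a short gene of 9.37 kb. Gene span can matter because unspliced RNA is counted in nuclei and long genes can collect more unique molecular identifiers (UMIs, each counting 1 captured RNA molecule).

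After quality control, 11915 WT nuclei and 13149 PIGinH11 nuclei were retained, with a median of 2977 and 1126 UMIs per nucleus. The depth therefore differed between the libraries in the same way as the genotype, and the 2 cannot be told apart. The paper also reports a smaller share of reads mapped to exons, and a larger share mapped to introns, for the transgenic library. This gap too went with the genotype and cannot be told apart from it. The libraries shared 60 cell barcodes. Classes were named "X-like" from marker genes that did not include the 4 genes. There were 2210 WT and 2291 PIGinH11 ductal-like nuclei, 8595 and 9055 acinar-like nuclei, and 221 and 499 endocrine-like nuclei, of which 112 and 125 were beta-like and 65 and 91 alpha-like. The stromal classes held 158 and 223 stellate-like and 31 and 86 mural-like nuclei. Levels in counts per 1000000 (CPM) are the UMIs of the gene per 1000000 UMIs of the class, with exact 95% Poisson intervals. The ductal and beta markers stood highest in the classes named for them, which is no independent check, since the naming used these markers. The 13 ductal markers summed to 49893 CPM in WT ductal-like nuclei against 831 in WT acinar-like nuclei, and 9 beta markers summed to 28303 in WT beta-like nuclei against 316 in WT acinar-like nuclei. In the PIGinH11 library, these sums were 40862 against 981 for the ductal markers and 24213 against 255 for the beta markers. Neither list was exclusive to its class. The ductal markers reached 5105 (WT) and 5085 (PIGinH11) CPM in stellate-like nuclei, and the beta markers 7714 and 5556 CPM in Schwann-like nuclei. The 16 WT and 190 PIGinH11 nuclei of the endocrine-like clusters that got no type of their own went partly against the class name. In the PIGinH11 library their acinar markers summed to 17638 CPM and their endocrine markers to 4482 CPM, so values of the endocrine-like class are also given without them, an alternative chosen after seeing the data. All intervals cover counting error only and not differences between pigs.

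PPARGC1A was a gene of the ductal-like nuclei, and its level there was nearly the same in both libraries. In WT ductal-like nuclei, 8351 UMIs gave a level of 971 (950 to 992). In PIGinH11 ductal-like nuclei, 3155 UMIs gave a level of 955 (922 to 989). On the log2 scale PIGinH11 over WT was -0.02 (-0.08 to 0.03), and the intervals of the libraries overlapped. Among all genes, PPARGC1A held rank 95 by level in WT ductal-like nuclei and rank 90 in PIGinH11 ductal-like nuclei. Only 26 of 7282 named genes with at least 100 ductal UMIs had a larger ratio of ductal-like over acinar-like nuclei in the WT library, and 12 of 4961 in the PIGinH11 library. These ranks are a description only, since the gene was chosen by its levels in these nuclei.

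**Figure D1:**
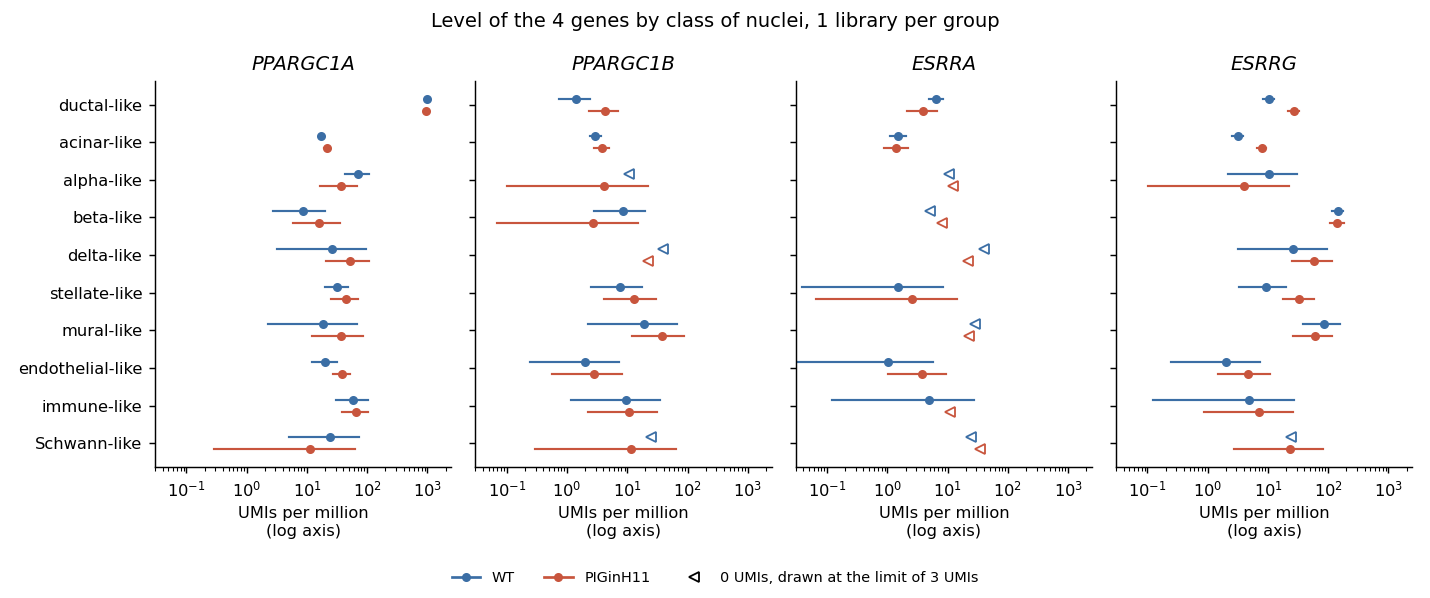
Level of each gene in CPM (x axis, log scale) by class of nuclei (y axis) in the WT and PIGinH11 libraries, with exact 95% Poisson intervals and open triangles at the limit of 3 UMIs where no UMI was counted. PPARGC1A stands highest in ductal-like nuclei (971 and 955) and ESRRG in beta-like nuclei (143 and 142), while the counted levels of PPARGC1B and ESRRA in the plotted classes reach at most 37.1 (PPARGC1B, PIGinH11 mural-like).

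The acinar-like nuclei, the other exocrine class, held far less PPARGC1A. The level was 17.0 (15.6 to 18.6) in the WT library from 507 UMIs and 21.6 (19.3 to 24.1) in the PIGinH11 library from 321 UMIs. The ductal-like level was 57.1-fold higher in the WT library (52.2 to 62.6) and 44.1-fold higher in the PIGinH11 library (39.3 to 49.6).

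Most WT ductal-like nuclei carried the transcript. At least 1 UMI of PPARGC1A was found in 1753 of 2210 WT ductal-like nuclei (79.3%, Clopper–Pearson interval 77.6 to 81.0) and in 1234 of 2291 PIGinH11 ductal-like nuclei (53.9%, 51.8 to 55.9). This gap went with the depth, which had a median of 3302 UMIs in WT and 969 in PIGinH11 ductal-like nuclei. After each nucleus was thinned to 500 UMIs, with no ductal-like nucleus left out, the shares were 33.9% (31.9 to 35.9) and 31.3% (29.4 to 33.3), and the intervals overlapped. The highest count in 1 ductal-like nucleus was 32 in WT and 26 in PIGinH11, and 217 WT and 37 PIGinH11 nuclei held 10 or more. In acinar-like nuclei, 5.54% of WT and 3.32% of PIGinH11 nuclei held a UMI at median depths of 2807 and 1171 UMIs, and after thinning these shares were 1.48% and 1.63%. No acinar-like nucleus held more than 3.

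**Figure D2:**
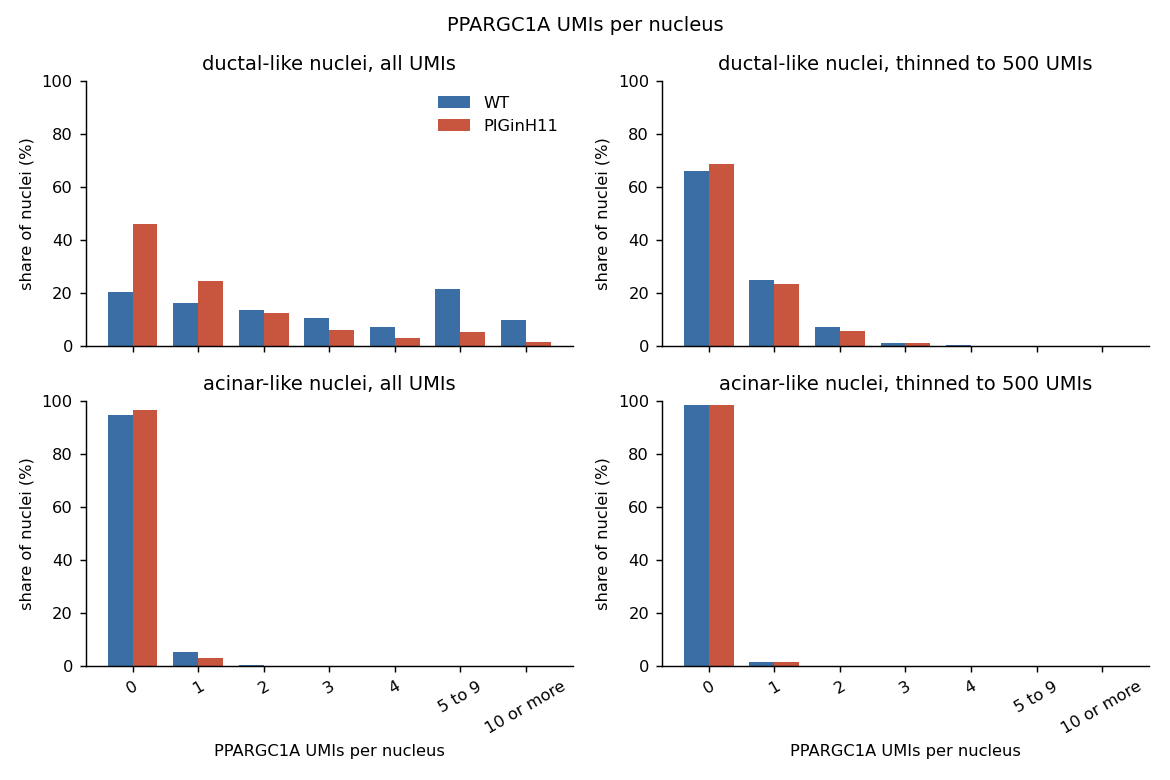
Share of nuclei in percent (y axis) by PPARGC1A UMIs per nucleus (x axis) in ductal-like (top) and acinar-like nuclei (bottom), with all UMIs (left) and after thinning each nucleus to 500 UMIs (right), as bars for each library. The libraries differ in ductal-like nuclei with all UMIs (20.7% of WT and 46.1% of PIGinH11 nuclei at 0 UMIs) and lie close after thinning (66.1% and 68.7%).

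The 3 ductal-like clusters, formed without the 4 genes, differed in PPARGC1A in the same order in both libraries. Cluster 6, which held the deepest nuclei, had 1086 CPM in WT nuclei (1060 to 1113) and 1118 in PIGinH11 nuclei (1074 to 1164). Cluster 5, which held shallower nuclei, had 781 (739 to 824) and 691 (640 to 745). Cluster 13 had the lowest level, with 614 (567 to 665) and 439 (347 to 548), and in no library did the intervals of the 3 clusters overlap. The median depth was 5139 and 1757 UMIs in cluster 6, 1679 and 731 in cluster 5, and 3376 and 1216 in cluster 13, so the order of the clusters was not the order of their depths.

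Within ductal-like nuclei the level went up with the depth of the nucleus. In WT nuclei it was 656 at 500 to 1000 UMIs, 723 at 1000 to 2000, 895 at 2000 to 4000 and 1034 at 4000 to 13000. In PIGinH11 nuclei, it was 725, 853, 1058 and 1250 in the same bins. The PIGinH11 value was thus the higher of the pair in each of the 4 bins, and the intervals did not overlap from 1000 UMIs upward. In nuclei with 1000 to 3000 UMIs alone, an alternative chosen after seeing the data, this log2 ratio was 0.24, against -0.02 over all depths. The equal levels over all depths therefore held for the libraries as deposited and not within bins of equal UMI counts. Such bins can pair different clusters, since cluster 5 in WT (median 1679 UMIs) was nearly as deep as cluster 6 in PIGinH11 (1757). By cluster, levels in PIGinH11 and WT were 1118 and 1086 (cluster 6) and 691 and 781 (cluster 5), with overlapping intervals. In cluster 13 they were 439 and 614, without overlap. Depth bins within single clusters were not tested.

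In acinar-like nuclei the level went the other way, from 83.5 at 500 to 1000 UMIs to 10.8 at 4000 to 13000 in the WT library and from 58.7 to 6.68 in the PIGinH11 library. The pooled acinar-like log2 ratio of PIGinH11 over WT was 0.35 (0.14 to 0.55), but the PIGinH11 level was the lower one in every depth bin, and at 1000 to 3000 UMIs the log2 ratio was -0.76.

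**Figure D3:**
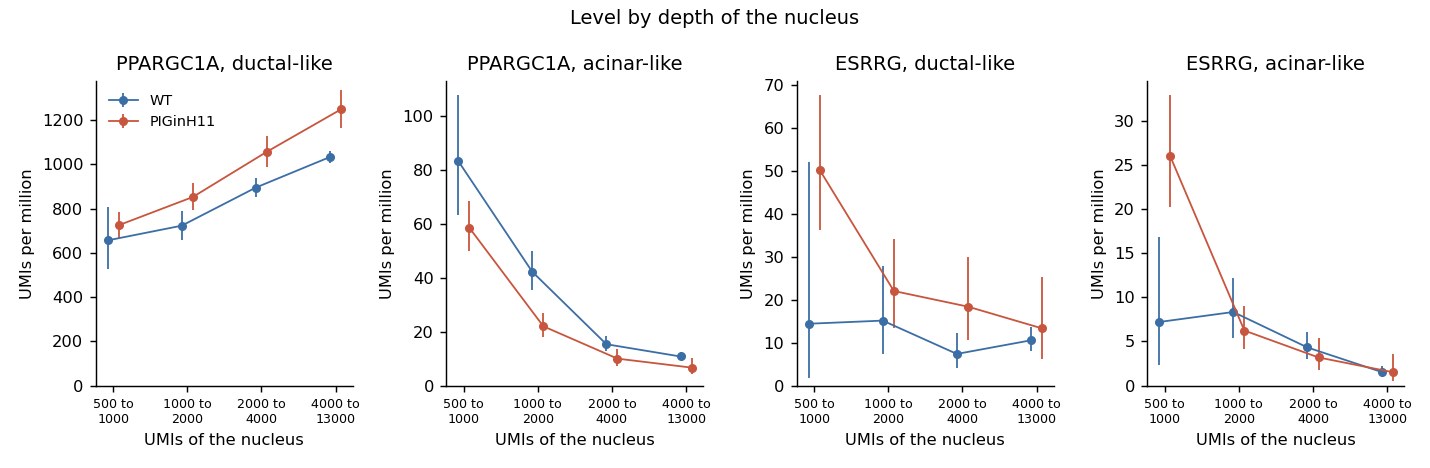
Level of PPARGC1A and ESRRG in CPM (y axis, from 0) by the total UMIs of the nucleus (x axis, 4 bins) in ductal-like and acinar-like nuclei of each library, with exact 95% Poisson intervals. PPARGC1A goes up with depth in ductal-like nuclei (656 to 1034 in WT) and down in acinar-like nuclei (83.5 to 10.8 in WT), and ESRRG in acinar-like nuclei lies apart between libraries only at 500 to 1000 UMIs (7.20 in WT and 26.0 in PIGinH11).

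In acinar-like, stellate-like and endothelial-like nuclei, PPARGC1A stood near the median of the ductal markers, such as PKHD1 (the fibrocystin of ductal cilia) and SLC4A4 (the ductal bicarbonate cotransporter). Per nucleus, WT acinar-like nuclei held 1.56% of the PPARGC1A UMIs of a ductal-like nucleus, and the median of 13 ductal markers was 1.33%. In PIGinH11 acinar-like nuclei, these shares were 2.57% and 2.41%. In stellate-like nuclei they were 3.52% and 3.52% (WT) and 5.54% and 6.66% (PIGinH11). In endothelial-like nuclei they were 2.21% and 1.80% (WT) and 5.77% and 4.84% (PIGinH11). The single markers ranged widely, from 0.766% to 16.5% in WT acinar-like nuclei. Beta-like nuclei lay below the marker medians, with 1.18% against 4.32% (WT) and 3.49% against 10.96% (PIGinH11). Of the 13 markers, 12 (WT) and 10 (PIGinH11) had a larger share there. The part of free RNA in these counts was not tested. This comparison was chosen after seeing the data.

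Alpha-like nuclei, the glucagon cells of the islet, came second among the named classes of the WT library at 70.3 CPM (43.0 to 109) from 20 UMIs and stood at 36.3 (16.6 to 68.8) from 9 UMIs in the PIGinH11 library. Beta-like nuclei were lowest in the WT library at 8.52 (2.77 to 19.9) and had 16.03 (5.88 to 34.9) in the PIGinH11 library, from 5 and 6 UMIs. With doublets retained, beta-like nuclei were above acinar-like nuclei in PPARGC1A, with log2 ratios of 1.64 (WT) and 1.25 (PIGinH11) against -0.998 and -0.43 without them, and 1 of the beta-like clusters then had PKHD1, SLC4A4 and CFTR among its leading genes. The alpha-like and beta-like intervals did not overlap in the WT library and overlapped in the PIGinH11 library. Per nucleus, the alpha-like share of the ductal-like value was 8.14% in the WT library, where 3 of 13 ductal markers had a larger share, and 7.18% in the PIGinH11 library, where 6 had. The 190 PIGinH11 nuclei of endocrine-like clusters without a type had 86.4 (47.3 to 145) from 14 UMIs at a median depth of 706.5 UMIs. The ductal markers summed to 4124 CPM there against 2063 over all PIGinH11 endocrine-like nuclei. Of the 190 nuclei, 170 lay in a cluster with the acinar genes RBPJL and NR5A2 among its leading genes, which held all 14 UMIs. The other 20 lay in a cluster without these leading genes and held none.

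The remaining classes lay between 11.4 and 64.9. In the WT library, immune-like (57.9), gamma-like (56.0), stellate-like (31.9), delta-like (26.3), Schwann-like (24.5), endothelial-like (20.1), mural-like (18.7) and acinar-like nuclei (17.0) followed in this order, and each interval overlapped that of its neighbour. In the PIGinH11 library, the order was immune-like (64.9), delta-like (51.2), stellate-like (43.6), endothelial-like (37.8), mural-like (37.1), alpha-like (36.3), gamma-like (22.8), acinar-like (21.6), beta-like (16.03) and Schwann-like nuclei (11.4), again with overlapping neighbours. Farther apart in this order, the immune-like level was 3.40-fold (1.75 to 6.00) and 3.00-fold (1.76 to 4.82) the acinar-like level. It rested on 12 UMIs in 6 WT nuclei, with 6 in 1 nucleus, and on 18 UMIs in 13 PIGinH11 nuclei. Per nucleus, the WT immune-like share of the ductal-like value was 4.47%, and 11 of 13 ductal markers had a larger share (median 6.38%). In the PIGinH11 library the share was 6.47%, and 4 of 13 had a larger one (median 5.09%). The part of free RNA here was not tested. Between the libraries, the endothelial-like log2 ratio of PIGinH11 over WT was 0.91 (0.10 to 1.76), from 41 and 20 UMIs. The median depths of these nuclei were 1420 and 3961 UMIs. Brown and white adipocytes also use PPARGC1A, and the 8 adipocyte markers together reached 40.2 CPM in WT and 61.1 in PIGinH11 ductal-like nuclei, below the 97.4 and 154 of acinar-like nuclei, with none of the 8 at 0 in either class.

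ESRRG, the receptor, had its highest level in a different epithelial class, the beta-like nuclei, and over all depths both libraries were nearly equal. In WT beta-like nuclei, 84 UMIs gave 143 CPM (114 to 177). In PIGinH11 beta-like nuclei, 53 UMIs gave 142 (106 to 185), and the log2 ratio was -0.01 (-0.54 to 0.50). This did not hold at every depth, with 80.8 (36.9 to 153) and 159 (91.2 to 259) at 2000 to 4000 UMIs and 157 and 162 above that, and log2 ratios of 1.69 at 1000 to 3000 UMIs and -1.16 after thinning. At least 1 UMI was present in 34 of 112 WT nuclei (30.4%, 22.0 to 39.8) and 27 of 125 PIGinH11 nuclei (21.6%, 14.7 to 29.8). After thinning, 6 WT and 4 PIGinH11 nuclei held one. The level rested on few nuclei, since the 5 nuclei with the most UMIs held 33 of 84 UMIs in WT and 21 of 53 in PIGinH11. All beta-like nuclei with an ESRRG UMI had a median depth of 5782 UMIs in the WT and 4083 in the PIGinH11 library. Those without one were shallower, with medians of 4295 and 1740 UMIs.

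Among the endocrine classes, ESRRG separated beta-like from alpha-like nuclei. The alpha-like level was 10.6 (2.18 to 30.8) from 3 WT UMIs and 4.03 (0.102 to 22.4) from 1 PIGinH11 UMI, and the beta-like level was 13.6-fold (4.48 to 67.1) and 35.2-fold (6.04 to 1414) higher. Delta-like nuclei lay between, at 26.3 (3.18 to 94.9) and 58.5 (25.3 to 115). Thus the coactivator gene was the higher of the pair in alpha-like nuclei (70.3 for PPARGC1A, 10.6 for ESRRG in the WT library) and the receptor gene in beta-like nuclei (8.52 for PPARGC1A, 143 for ESRRG). The spans of these genes differ little (686 and 661 kb), and per kb of span the WT beta-like levels were 0.0124 CPM for PPARGC1A and 0.217 for ESRRG.

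Over all endocrine-like nuclei the ESRRG level was 92.2 (74.5 to 113) in the WT and 69.4 (54.1 to 87.7) in the PIGinH11 library, with a log2 ratio of -0.41 (-0.88 to 0.05). The beta-like nuclei made up 112 of 221 endocrine-like nuclei in the WT library and 125 of 499 in the PIGinH11 library, which also held the 190 nuclei without a type, with an ESRRG level of 37.0. Without these nuclei the levels were 92.5 and 75.6, with a log2 ratio of -0.29 (-0.78 to 0.18).

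The mural-like nuclei (pericytes and vascular smooth muscle) had the second highest ESRRG level among the named classes. This order is uncertain, since gamma-like nuclei in the WT library (56.0, 6.78 to 202) and delta-like nuclei in the PIGinH11 library (58.5, 25.3 to 115) had overlapping intervals. The mural-like level was 84.1 (38.5 to 160) from 9 UMIs in the WT library and 59.4 (25.6 to 117) from 8 UMIs in the PIGinH11 library. Per nucleus this was 38.7% and 21.9% of the beta-like value, while none of 9 beta markers reached these shares (medians of 0.563% and 1.08%). The beta-like level was 1.70-fold (0.855 to 3.85) the mural-like level in the WT library and 2.39-fold (1.13 to 5.81) in the PIGinH11 library. The 8 PIGinH11 UMIs lay in 4 of 86 nuclei. Stellate-like nuclei, the fibroblast class, had 9.10 (3.34 to 19.8) from 6 UMIs and 33.4 (17.8 to 57.04) from 13 UMIs, with a log2 ratio of 1.87 (0.38 to 3.56). The endothelial-like level was low, at 2.01 and 4.61.

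Ductal-like and acinar-like nuclei held little ESRRG, and the pooled value was higher in the PIGinH11 library in both. In ductal-like nuclei, 88 UMIs in each library gave 10.2 (8.21 to 12.6) in WT and 26.6 (21.4 to 32.8) in PIGinH11, a log2 ratio of 1.38 (0.94 to 1.82). In acinar-like nuclei, 93 and 116 UMIs gave 3.12 (2.52 to 3.82) and 7.82 (6.46 to 9.38), a log2 ratio of 1.33 (0.92 to 1.74). Both intervals lay above 0. Per nucleus, however, the 2 libraries held nearly the same number of ESRRG UMIs: 0.0398 and 0.0384 in ductal-like nuclei and 0.0108 and 0.0128 in acinar-like nuclei. These were 5.31% and 9.06% of the beta-like value in ductal-like nuclei, where the medians of the 9 beta markers were 0.551% and 0.972%, and 1.44% and 3.02% in acinar-like nuclei, where the medians were 0.403% and 0.858%.

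The depth of the nuclei moved with this difference. In acinar-like nuclei with 500 to 1000 UMIs, the level was 7.20 (2.34 to 16.8) in 907 WT nuclei and 26.0 (20.2 to 32.8) in 3663 PIGinH11 nuclei. In the 3 deeper bins it was 8.33, 4.32 and 1.54 in the WT and 6.23, 3.19 and 1.52 in the PIGinH11 library, with overlapping intervals in each bin. At 1000 to 3000 UMIs the acinar-like log2 ratio was -0.34, so the direction of the pooled value turned. In ductal-like nuclei the PIGinH11 value was the higher one in all 4 bins (14.4 and 50.3, 15.2 and 22.1, 7.39 and 18.4, 10.6 and 13.3), the intervals overlapped in each bin, and at 1000 to 3000 UMIs the log2 ratio was 0.80. Of the 116 PIGinH11 acinar-like UMIs, 66 lay in cluster 1, which had 29.8 CPM (23.0 to 37.9) and a median depth of 827.5 UMIs, and in the WT library the same cluster had 10.4 (7.14 to 14.7) at a median depth of 1462.

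**Figure D4:**
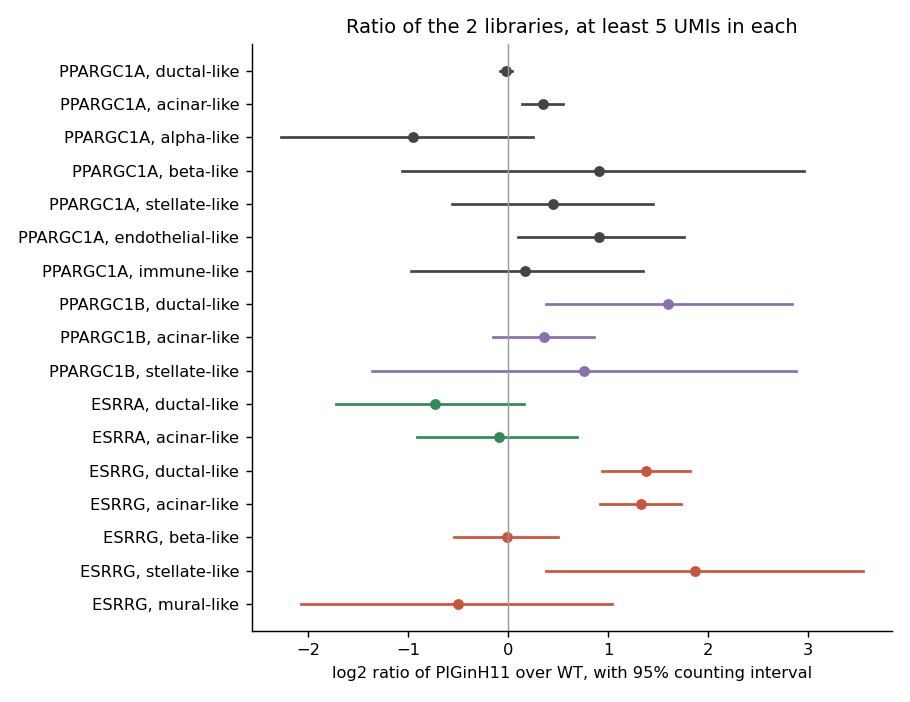
Log2 ratio of PIGinH11 over WT (x axis) for each gene and class with at least 5 UMIs in each library (y axis), with exact 95% intervals of counting error. Over all depths, PPARGC1A in ductal-like (-0.02) and ESRRG in beta-like nuclei (-0.01) lie near 0. PPARGC1A in acinar-like nuclei (0.35) and ESRRG in ductal-like (1.38) and acinar-like nuclei (1.33) lie above 0 with their intervals. From fewer UMIs, so do PPARGC1A in endothelial-like (0.91), PPARGC1B in ductal-like (1.60) and ESRRG in stellate-like nuclei (1.87). In nuclei of 1000 to 3000 UMIs, both values near 0 were above it and both acinar-like values were below it. After thinning, ESRRG in beta-like nuclei was below 0.

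In single nuclei not matched for depth, the detection of one gene went little with that of the other. Of the ductal-like nuclei with PPARGC1A, 48 of 1753 WT and 44 of 1234 PIGinH11 nuclei also held an ESRRG UMI, which is 2.74% and 3.57%, close to the shares over all ductal-like nuclei (2.67% and 3.36%). PPARGC1A was found in 48 of 59 and 44 of 77 ductal-like nuclei with ESRRG, which is 81.4% and 57.1%, against 79.3% and 53.9% of all. Of the beta-like nuclei with ESRRG, 0 of 34 WT and 1 of 27 PIGinH11 nuclei also held a PPARGC1A UMI, against 5 of 112 and 6 of 125 of all beta-like nuclei (4.46% and 4.80%), counts too low to show a difference.

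ESRRA, the other receptor, was counted rarely, with 143 UMIs over the 10 named classes with at least 20 nuclei in each library. Ductal-like nuclei held 56 WT and 13 PIGinH11 UMIs, or 6.51 (4.92 to 8.46) and 3.93 (2.09 to 6.73) CPM. Acinar-like nuclei held 45 and 21 UMIs, or 1.51 (1.10 to 2.02) and 1.42 (0.876 to 2.16). The ductal-like level was 4.31-fold (2.86 to 6.54) and 2.78-fold (1.28 to 5.82) higher. The log2 ratios of PIGinH11 over WT were -0.73 (-1.72 to 0.16) in ductal-like and -0.09 (-0.91 to 0.68) in acinar-like nuclei, and both intervals held 0.

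No ESRRA UMI was counted in endocrine-like nuclei of either library. With 3 counts taken as the limit of a count of 0, the counts of 0 of 221 WT and 0 of 499 PIGinH11 nuclei allow shares of nuclei with a UMI of up to 1.36% and 0.601%, and levels of up to 2.94 and 2.97 CPM, which is above the acinar-like level, so a difference from acinar-like nuclei was not detectable at this depth. The ductal-like levels of 6.51 and 3.93 lay above these limits, though the PIGinH11 interval reached below its limit. Mural-like nuclei also held no UMI, and stellate-like nuclei held 1 in each library. Endothelial-like nuclei held 1 WT and 4 PIGinH11 UMIs, and the PIGinH11 level of 3.69 (1.00 to 9.44) overlapped those of ductal-like and acinar-like nuclei.

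ESRRA had the shortest span of the 4 genes, and the part of the span in its low count was not tested. The ductal-like level of PPARGC1B, which spans 102 kb, was 1.40 CPM against 6.51 for ESRRA in the WT library. In the PIGinH11 library these levels were 4.24 and 3.93. Per kb of span, the ductal-like level was 0.695 CPM in the WT and 0.420 in the PIGinH11 library for ESRRA, against 1.42 and 1.39 for PPARGC1A and 0.0155 and 0.0403 for ESRRG. On this scale of levels, ESRRA was thus the receptor with the higher level in ductal-like nuclei, whereas ESRRG had the higher UMI count. The scale takes all of the span as countable, which reads from the 3′ end do not strictly meet.

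PPARGC1B, the second coactivator, was low in every class. Acinar-like nuclei held 88 WT and 56 PIGinH11 UMIs, or 2.95 (2.37 to 3.64) and 3.77 (2.85 to 4.90) CPM, with a log2 ratio of 0.35 (-0.16 to 0.85). Ductal-like nuclei, where PPARGC1A was highest, held 12 and 14 UMIs, or 1.40 (0.721 to 2.44) and 4.24 (2.32 to 7.11), with a log2 ratio of 1.60 (0.38 to 2.84). Per nucleus these were 0.00543 and 0.00611 UMIs. At 500 to 1000 UMIs of depth the levels were 0 and 3.51 (0 and 3 UMIs), and at 1000 to 2000 they were 1.52 and 9.93 (1 and 9 UMIs). At 2000 to 4000 they were 0.985 and 1.15 (2 and 1 UMIs), and at 4000 to 13000 they were 1.56 and 1.48 (9 and 1 UMIs). The intervals overlapped in each bin, and these counts are too low to show likeness or difference. Within the WT library the ductal-like level of PPARGC1B was below the acinar-like level (log2 ratio -1.08, -2.09 to -0.20), and in the PIGinH11 library the interval held 0 (0.17, -0.79 to 1.03). Per kb of span, PPARGC1B in WT ductal-like nuclei stood at 0.0137 CPM and PPARGC1A at 1.42.

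The mural-like nuclei had the highest PPARGC1B values, 18.7 (2.26 to 67.5) and 37.1 (12.0 to 86.6), though from 2 and 5 UMIs. Stellate-like and mural-like nuclei together held 7 WT and 10 PIGinH11 UMIs, or 9.14 (3.67 to 18.8) and 19.1 (9.14 to 35.1) CPM, which was 3.095-fold (1.21 to 6.65) and 5.05-fold (2.30 to 9.99) above acinar-like nuclei of the same library. Between the libraries the stromal log2 ratio was 1.06 (-0.48 to 2.69).

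The genes with the most similar pattern were sought over 10 classes in both libraries (20 points, which share libraries and depth) by Pearson's r of log2 (CPM plus 5) among 10768 named genes. For PPARGC1A they were PKHD1 (r = 0.94), SLC4A4 (0.94), PBX3 (0.93), KIT (0.92) and KCNJ15 (0.91), all of them highest in ductal-like nuclei when compared with acinar-like and beta-like nuclei. For ESRRG they were GALNT16 (0.89), MAL2 (0.85), EPHB1 (0.84), SEPTIN8 (0.81) and ADGRV1 (0.80), all higher in beta-like than in ductal-like and acinar-like nuclei. KDM6A (0.91), PRR15 (0.89), TRPM7 (0.86), GPRC5B (0.82) and ELF3 (0.80) were nearest to ESRRA, and ATG4A (0.86), TTC1 (0.82), C19orf38 (0.81), LOXL2 (0.81) and ANO3 (0.79) to PPARGC1B, which are sparse profiles of 143 and 205 UMIs. Among the 4 genes, r between PPARGC1A and ESRRA was 0.66 and between PPARGC1A and ESRRG -0.14.

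The other genes of the pathway were described with 7 lists of 136 genes, of which 131 were found. They were first compared between ductal-like and acinar-like nuclei, counting genes at least 2-fold apart in the same direction in both libraries. Of 125 list genes with at least 40 UMIs over both classes per library, 8 were higher and 13 lower in ductal-like nuclei, while among all 14341 genes the shares were 12.5% and 12.1%. The median log2 ratio of the list genes, averaged over the libraries, was 0.15, and that of all genes 0.07. The counts of the list genes were not above those of all genes in either direction, while PPARGC1A itself was 57.1-fold and 44.1-fold higher in the same nuclei. PPARGC1A was chosen by its levels in these nuclei and the lists were not, so this contrast is no test.

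The genes named next for this contrast were chosen after their values were seen. Of the 18 tricarboxylic acid cycle genes, 2 were past the fold in ductal-like nuclei (11.11%, against 12.5% of all genes), and the median log2 ratio was 0.63. IDH2 (mitochondrial isocitrate dehydrogenase) had a log2 ratio of 1.18 in the WT and 1.26 in the PIGinH11 library, and DLST (a subunit of oxoglutarate dehydrogenase) 1.58 and 1.17. Of the 23 respiratory chain genes, 3 were past it upward (13.0%). NDUFS1 and NDUFA4 (subunits of complex I and of cytochrome oxidase) and the adenine nucleotide carrier SLC25A5 were these 3, and the related carrier SLC25A4 was past it downward, with a list median of 0.37.

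Of the 17 fatty acid oxidation genes measured, 4 were lower in ductal-like nuclei (23.5%, against 12.1% of all genes), 1 was higher and 12 did not pass the fold, with a median log2 ratio of -0.61. ACSL1 (which activates long-chain fatty acids) had -1.45 in the WT and -1.20 in the PIGinH11 library, CPT1B (which loads them onto carnitine) -1.12 and -1.30, and HADHA (the trifunctional enzyme) -1.08 and -1.34, with ECHS1 as the fourth. ACAA2 (mitochondrial thiolase) was the exception with 2.59 and 1.96.

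Of 21 partner transcription factors, 4 were lower in ductal-like nuclei (19.0%, against 12.1% of all genes). Only 1 was higher (4.76%, against 12.5%), and the list median was -0.11. PPARA, the fatty acid-sensing receptor, was lower in ductal-like nuclei with 59.4 CPM against 231 in the WT library and 69.9 against 326 in the PIGinH11 library. HNF4A, MEF2D and NR0B2 were also past the fold downward, and only ESRRB, the third estrogen-related receptor, was past it upward among 21 partner transcription factors. ESRRB had 13.3 CPM in WT ductal-like and 4.02 in WT acinar-like nuclei (log2 ratio 1.72, 1.34 to 2.10), and 28.4 and 7.35 in the PIGinH11 library (1.95, 1.54 to 2.36). None of 13 coactivator and corepressor genes was past the fold in both libraries, and PPRC1, the third coactivator of the family, was lower in ductal-like nuclei (log2 ratio -1.98 and -0.93).

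**Figure D5:**
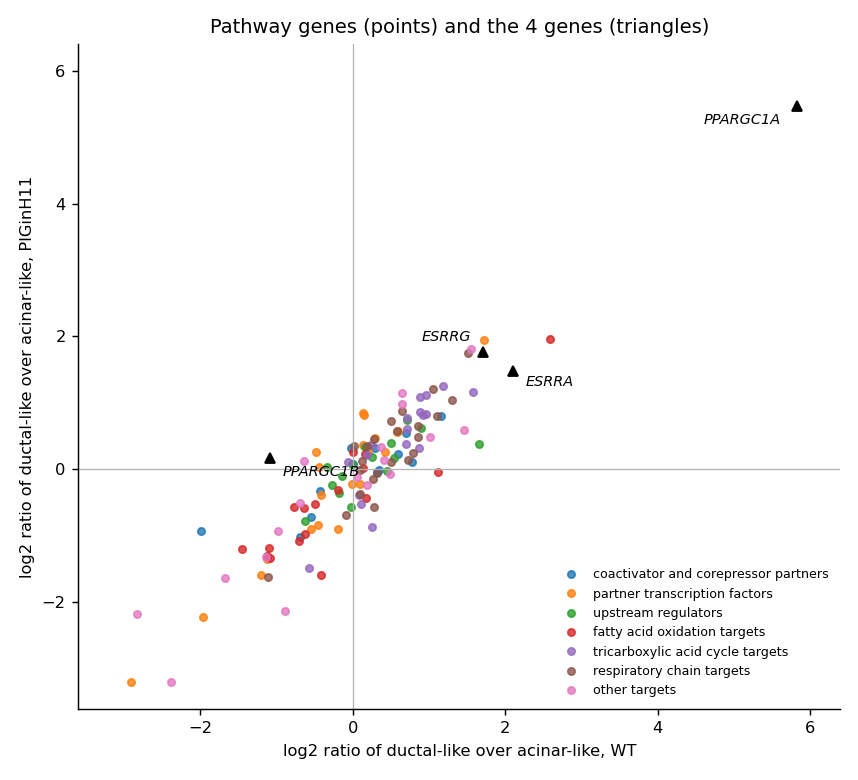
Log2 ratio of ductal-like over acinar-like nuclei in the WT library (x axis) and the PIGinH11 library (y axis) for the genes of 7 pathway lists (coloured points) and the 4 genes (black triangles). PPARGC1A, which was chosen by its levels in these nuclei, lies far from all list genes at 5.84 and 5.46. The fatty acid oxidation genes lie mostly below 0, with a median of -0.61 over both libraries.

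Between the libraries, few pathway genes were past the fold. In acinar-like nuclei, 6 of 126 list genes were at least 2-fold higher and 0 lower in PIGinH11, against 17.4% and 2.89% of all 16586 genes with at least 40 UMIs. In ductal-like nuclei, 5 of 121 were higher and 4 lower, against 12.1% and 3.24% of 12596 genes. In endocrine-like nuclei, 1 of 84 was higher and 1 lower, against 6.24% and 2.61% of 7134 genes. The background of higher genes went with a shift of all genes. The median log2 ratio of genes that had 20 UMIs or more per library was 0.22 in acinar-like, 0.16 in ductal-like and 0.04 in endocrine-like nuclei, and after removal of this shift the acinar-like shares were 11.4% higher and 4.82% lower and the ductal-like shares 9.95% and 4.83%, while 4 list genes were higher and 1 lower in acinar-like and 4 higher and 4 lower in ductal-like nuclei. Values below are not corrected for it. These values are pooled over all depths, and for the pathway genes nuclei of like depth were not compared. In PPARGC1A and ESRRG, such a comparison turned the direction of the acinar-like ratios. The libraries also differed in their shares of exon and intron reads, and the part of this gap in the ratios was not tested.

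In acinar-like nuclei over all depths, PDK4 (the kinase that switches off pyruvate dehydrogenase) had the largest ratio. Its level was 159 CPM in WT and 511 in PIGinH11 (log2 ratio 1.69, 1.64 to 1.74). PPARG (the adipogenic nuclear receptor) had 1.58 (1.11 to 2.07), CPT2 (the inner carnitine transferase) 1.47 (1.31 to 1.64) and MEF2C (a MADS-box factor) 1.30 (0.91 to 1.70). The other 2 past the fold were HADHB and ACAA2, which are also fatty acid oxidation genes, so 3 of the 17 genes of that list were past it (17.6%, near the 17.4% of all genes). Among genes with at least 100 UMIs, the lowest ratios were those of CYCS (-0.85), COX7C (-0.76), SLC25A5 (-0.74) and GPX1 (-0.68), of which the first 3 belong to the respiratory chain list with its median of -0.13.

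In ductal-like nuclei, the respiratory chain list had the lowest median, at -0.30 against 0.13 for all genes with at least 40 UMIs. The part of the lower exon read share of the PIGinH11 library in this median was not tested. COX7C (a cytochrome oxidase subunit) had 56.2 CPM in WT and 25.7 in PIGinH11 (log2 ratio -1.13, -1.48 to -0.79), and NDUFA4 -0.79 (-1.09 to -0.50). NDUFA4 did not pass the fold. COX7C, CYCS and COX5B were the 3 of 24 genes of this list past it downward (12.5%, against 3.24% of all genes). CAMKK2 (a kinase upstream of AMPK) had the lowest ratio among genes with at least 100 UMIs, -1.17 (-1.46 to -0.88), and RNF34 (a ubiquitin ligase that targets PPARGC1A) had -0.71.

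The highest ductal-like ratios among genes with at least 100 UMIs were those of POLG (the mitochondrial DNA polymerase, 1.23, 0.79 to 1.67), ESRRB (1.10, 0.69 to 1.51), ACADVL (0.79) and NDUFS4 (0.76). MEF2C, PPRC1 and NR1H3, with fewer UMIs, were also past the fold. Thus ESRRB and ESRRG both had higher pooled values in PIGinH11 ductal-like nuclei, where PPARGC1A had -0.02. For ESRRB, as for the other pathway genes, nuclei of like depth were not compared.

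In endocrine-like nuclei, PDK4 again had the largest ratio, from 28.4 to 136 CPM (log2 ratio 2.26, 1.67 to 2.89). PRKAA2 (a catalytic AMPK subunit) had 0.94, CPT1A 0.91 and NCOR1 0.71. THRB (a thyroid hormone receptor) had the lowest ratio, from 1656 to 809 CPM (-1.03, -1.16 to -0.91), followed by FOXO1 (-0.81), PRKAA1 (-0.71) and NRIP1 (-0.66). The acinar markers of the class moved with these ratios, from 3591 CPM in the WT to 7109 CPM in the PIGinH11 library. Without the nuclei that had no type, they were 3434 and 5095 CPM, and PDK4 had 27.5 and 92.1 CPM (1.75, 1.10 to 2.43) and THRB -1.14 (-1.27 to -1.01), which were again the only list genes past the fold, of 79 measured, against 4.18% higher and 3.1% lower of 6674 genes. The mix of types differed too, since 112 of these 205 WT nuclei and 125 of these 309 PIGinH11 nuclei were beta-like, and 6 and 43 were gamma-like. Ratios per type are not given, and the parts of acinar RNA and of the mix of types in these ratios were not tested.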

How the data were processed

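Nuclei from the pancreas of 1 WT and 1 PIGinH11 pig were sequenced. Reads were aligned by the authors to Sscrofa11.1 with Cell Ranger (v3.1.0 in the processing notes, v5.0.0 in the file headers), and the deposited values are raw UMI counts per gene and barcode. The members and gene lists were chosen with earlier results of these data known. The limits were 270 to 3700 genes, below 13000 UMIs and below 10% of UMIs from mitochondrial genes, which 13189 of 13619 WT and 14907 of 14964 PIGinH11 barcodes passed. The methods print a UMI limit of 1300, which was run as an alternative. Barcodes with the highest doublet scores (1484 and 1791 of all barcodes), scored against simulated doublets, were also removed. Clustering used Harmony and Louvain (igraph v0.11.9) without the 4 genes and the pathway genes, and clusters were named from markers. The UMIs of a gene were summed over each class and scaled to CPM. Ratios have exact conditional binomial 95% intervals, run on simulated Poisson counts. These counts follow the model that the intervals assume, so the simulation cannot show how the intervals hold where UMIs gather in few nuclei. With 1 library per group, no test between groups was made. The named pathway genes were the 4 largest and 4 smallest log2 ratios of PIGinH11 over WT per class among genes with at least 100 UMIs.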

Additional observations from a re-analysis of the deposited data

How the results depend on the processing

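Of 569 values recomputed under alternatives, 431 stayed inside the main interval or within 1.5 times the main count, 135 moved out and 3 whose main interval lay on 1 side of 0 turned direction. Values whose main interval held 0 took either sign, as given below. The turned values were the acinar-like log2 ratios of PIGinH11 over WT, of PPARGC1A (-0.33 with the UMI limit of 1300 and -0.76 in nuclei of 1000 to 3000 UMIs) and of ESRRG (-0.34 in nuclei of 1000 to 3000 UMIs). None of the 18 main values given here moved without Harmony, at Louvain resolution 2, in nuclei whose own class scored highest or with the reduced denominator, which moved 2 of 32 other values (PPARGC1A levels in WT, to 18.8 CPM in acinar-like and 1011 CPM in ductal-like nuclei). The alternatives of 1000 to 3000 UMIs and of typed endocrine-like nuclei were added after seeing the data. The cause of each move was not tested, except that the UMI limit of 1300 left 1922 WT and 7631 PIGinH11 nuclei by construction.

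For the log2 ratio of PPARGC1A between ductal-like and acinar-like nuclei (5.84 in WT and 5.46 in PIGinH11), the UMI limit of 1300 gave 3.49 and 3.92, the mean over nuclei 4.96 and 4.56, thinning 4.88 and 4.64, and 1000 to 3000 UMIs 4.79 and 5.79. Free RNA subtraction took off the UMIs per nucleus of the lowest of 6 classes, and free RNA itself was not measured. It gave 7.86 in WT, where the reference was beta-like nuclei with 0.0446 UMIs per nucleus from 5 UMIs, against 0.0590 in acinar-like nuclei. It gave no PIGinH11 value, since acinar-like nuclei were the reference there. In PIGinH11, retained doublets gave 5.21 and the gene minimum of 500 gave 5.70. The ductal-like ratio of the libraries for PPARGC1A (-0.02) was -0.11 with doublets, 0.096 with the UMI limit, -0.12 as the mean over nuclei, -0.12 after thinning, -0.18 with median-of-ratios scaling and 0.24 at 1000 to 3000 UMIs. The acinar-like ratio was 0.11 after thinning and 0.12 with median-of-ratios scaling.

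For ESRRG, the log2 ratio of beta-like over acinar-like nuclei (5.52 in WT and 4.18 in PIGinH11) was 6.12 and 1.55 with the UMI limit, 4.76 and 3.04 as the mean over nuclei, 4.68 and 2.30 after thinning, 7.64 and 6.18 after free RNA subtraction, and 2.51 in WT at 1000 to 3000 UMIs. The ratio of ductal-like over acinar-like nuclei (1.71 in WT and 1.77 in PIGinH11) was 0.11 and 1.04 with the UMI limit and 3.52 and 3.39 after subtraction, and in WT 1.22 as the mean over nuclei, 1.07 after thinning and 1.00 at 1000 to 3000 UMIs. The ratio of the libraries for ESRRG was -3.42 with the UMI limit, -1.16 after thinning and 1.69 at 1000 to 3000 UMIs in beta-like nuclei, and 2.08 with the UMI limit and 0.80 at 1000 to 3000 UMIs in ductal-like nuclei. With the UMI limit, ESRRA had 1.62 in acinar-like and 1.05 in ductal-like nuclei and PPARGC1B -0.53 in acinar-like nuclei. PPARGC1B there had -2.62 after subtraction and -0.34 at 1000 to 3000 UMIs. ESRRG in beta-like nuclei rested on 84 and 53 UMIs, and ESRRA and PPARGC1B on 143 and 205 over 10 classes of both libraries. With the UMI limit only 3 WT and 39 PIGinH11 nuclei were beta-like. After thinning, 6 WT and 4 PIGinH11 beta-like nuclei held an ESRRG UMI, so the beta-like values at these settings rest on few nuclei.

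At a fold of 1.5, 24 of 126 list genes were higher and 8 lower in acinar-like nuclei. In ductal-like nuclei 10 of 121 were higher and 11 lower, and in endocrine-like nuclei 8 of 84 were higher and 8 lower. With at least 100 UMIs, 2 of 109 were higher and 2 lower in ductal-like nuclei. The shares of all genes at these 2 settings are not given, so these counts are not read as a result about the lists. With median-of-ratios scaling 1 was lower in acinar-like nuclei. No paired analysis was possible because each group has 1 library and the result comes from no test.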
